A study of Mus musculus with 12 samples.

Results

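The expression of 10 pluripotency genes was read from the whole gene table at 72 h of reprogramming factor induction in mouse embryonic fibroblasts (MEFs). These genes were Pou5f1, Sox2, Nanog, Esrrb, Zfp42, Lin28a, Sall4, Utf1, Tdgf1 and Dppa4, chosen by symbol as 10 of the 55573 genes counted, and an Ensembl identifier matched each symbol. RNA came from MEFs of mid-gestation embryos of the C57BL/6 reprogrammable strain i4F-B, in which a doxycycline-responsive cassette encodes Oct4, Sox2, Klf4 and Myc (OSKM). Every group carried this cassette and was grown in iPSC medium. The groups were MEF (no doxycycline, no added B12), MEF+B12 (2 µM vitamin B12), OSKM (doxycycline, 1 µg/ml per the labels) and OSKM+B12 (both agents), with 1 library from each of clones 1, 2 and 3, where a clone is the fibroblast culture of 1 embryo. This made 12 libraries, 6 of them induced. Uninduced cells received no doxycycline, so effects of the drug and of the factors cannot be told apart. All 12 fibroblast markers examined, Col1a1 and Pdgfra among them, were detected in every library.

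Pluripotency rests on a network of transcription factors in which Oct4 (encoded by Pou5f1) and Sox2 bind neighbouring DNA sites as a pair, and Nanog and Esrrb stabilize the self-renewing state. In embryonic stem cells this network maintains the chromatin and RNA regulators that mark the state, including Utf1, Dppa4 and Lin28a. When fibroblasts are reprogrammed, the factors are first supplied from a transgene, and the endogenous network is known to switch on late and in few cells. Reads of the cassette and of the endogenous gene fall in the same row for Pou5f1 and Sox2, and the table does not separate them.

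The paired binding site is shown first because its factors are the members that rose with induction. The 250 bases before the annotated start of Nanog and of Zfp42 are given from RefSeq (GRCm38.p6), 5′ to 3′ on the strand of the gene. The Nanog window is chr6:122707239-122707488 on the plus strand, and the Zfp42 window is chr8:43307010-43307259 on the minus strand. Capitals mark, in Nanog, the composite element, which is a SOX site (CATTGT), 1 base and an octamer core (ATGCAAA), read here on the opposite strand, and, in Zfp42, an octamer (ATGCAAAT), also on the opposite strand.
Nanog: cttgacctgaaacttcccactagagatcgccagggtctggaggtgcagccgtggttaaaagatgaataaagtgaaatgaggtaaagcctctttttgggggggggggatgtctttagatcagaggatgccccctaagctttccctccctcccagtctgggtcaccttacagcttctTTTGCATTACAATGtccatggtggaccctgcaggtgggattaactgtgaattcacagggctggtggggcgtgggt
Zfp42: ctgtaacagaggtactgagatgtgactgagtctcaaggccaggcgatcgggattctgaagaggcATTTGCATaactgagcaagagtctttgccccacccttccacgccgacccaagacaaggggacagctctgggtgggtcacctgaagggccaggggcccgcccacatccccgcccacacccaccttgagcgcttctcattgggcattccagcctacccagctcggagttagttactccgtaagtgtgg

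The composite element of Nanog lay from -75 to -62 relative to the start. Over all 32851 promoter windows of 27025 genes, searched on both strands, it occurred in 2 windows (0.00609%), both of them of 1 gene, Nanog, whose 2 annotated starts lie close together. Its parts were common, since the octamer core was in 4.12% of windows, the full octamer, which contains the core, in 1.60%, and the SOX site in 10.7%. Of the 8 members with a promoter entry, Sox2 and Zfp42 also held an octamer core, from -99 to -93 and from -185 to -179, and Lin28a held a SOX site from -96 to -91. A second annotated start of Pou5f1 had a SOX site from -158 to -153. The E-box (CACGTG), the motif bound by Myc, was in 6.02% of all windows and in no member window. These letter matches are a description of the windows and do not show binding.

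Detection differed widely between the members. Pou5f1 and Sox2 had 142 to 1407 counts in induced libraries, Nanog had about the same low count everywhere, and the other 7 had at most 4 counts in any library. Lin28a, Utf1 and Dppa4 had 0 counts in all 12 libraries. Sox2 and Nanog were the 2 members with at least 1 count in every library. Between 3 and 5 members had at least 1 count in an uninduced library and between 4 and 6 in an induced library, but with a minimum of 10 counts it was 2 to 3 and 3. Library totals ran from 56971244 to 79236795 counted pairs, so that 3 counts in 1 library corresponded to 0.0385 to 0.0519 CPM (counts per 1e+06 pairs of the library, after TMM scaling) and 3 counts over all 12 libraries to 0.00385 CPM. Intervals and floors here cover counting error only.

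**Figure D1:**
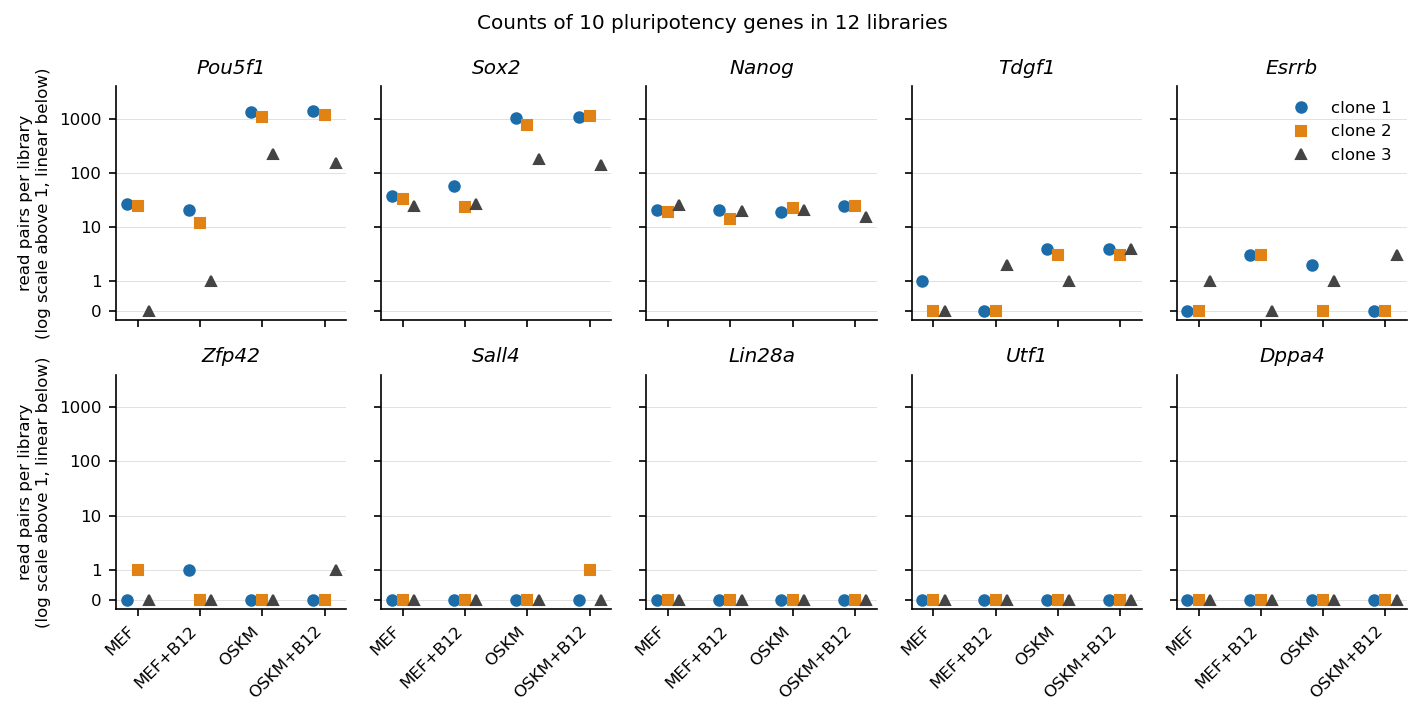
Read pairs counted for each of the 10 members (vertical axis, logarithmic above 1 and linear below) in the 4 groups (horizontal axis), with 1 point per library and the marker showing the clone. Pou5f1 and Sox2 lie at 142 to 1407 in the 6 induced libraries, Nanog at 14 to 26 in all 12, and Lin28a, Utf1 and Dppa4 at 0 throughout.

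Pou5f1 (ENSMUSG00000024406, GRCm38 chromosome 17, 35506018 to 35510772) encodes Oct4, the POU-domain factor on which pluripotency depends. Uninduced clones 1, 2 and 3 had 27, 24 and 0 counts of it without B12 and 21, 12 and 1 with B12. Induced, the same clones had 1304, 1069 and 223 counts without B12 and 1407, 1179 and 152 with B12. Every induced library was above every uninduced one, and clone 3 was the lowest within each group. Pou5f1 rose with induction by 5.65 ± 0.21 on the log2 scale without B12 (edgeR quasi-likelihood fit with clone as a block, ± SE, 3 libraries per group, adjusted p = 5.95e-07) and by 6.28 ± 0.23 with B12 (adjusted p = 3.78e-07). In these bulk samples, more cells expressing a gene and more RNA per cell cannot be told apart.

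Sox2 (ENSMUSG00000074637, chromosome 3, 34650405 to 34652461) encodes the HMG-box partner of Oct4. Uninduced clones 1, 2 and 3 had 38, 33 and 24 counts without B12 and 58, 23 and 27 with B12, and induced ones had 1046, 770 and 182 without and 1085, 1108 and 142 with B12. Induced and uninduced libraries again did not overlap. Sox2 rose by 4.19 ± 0.41 without B12 (adjusted p = 0.00287) and by 4.26 ± 0.41 with B12 (adjusted p = 0.00201) in the edgeR fit on the log2 scale. These calls were less stable than those of Pou5f1. Without clone 1 the Sox2 difference was 3.94 (adjusted p = 0.410) and without clone 2 it was 3.84 (adjusted p = 0.497), and with B12 the adjusted p-values were 0.284 and 0.295 in these refits with 2 clones. Pou5f1 passed the threshold with any clone left out (5.48 to 5.89 without B12 and 6.14 to 6.54 with it), but with no clone block neither gene passed in either comparison, with adjusted p-values of 0.705 without B12 and 0.966 with it.

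Pou5f1 and Sox2 were thus 2 of the 3 members that passed the low-count filter and 2 of the 10 members in all, in both comparisons. Both are encoded by the induced cassette, whose reads fall in their rows, so their calls do not describe the other members. Nanog, the other member tested, was not called. Over the 19174 genes tested, 0.073% were called without B12 and 0.104% with B12, all of them higher in induced cells. When induction was averaged over both B12 conditions, the same pair was called, Pou5f1 at 5.96 ± 0.15 (adjusted p = 1.14e-08) and Sox2 at 4.22 ± 0.29 (adjusted p = 7.13e-05), against 9.73% of all genes called (4.46% higher and 5.26% lower). The averaged comparison uses 6 pairs of libraries from only 3 embryos. Without clone 2, the Sox2 average was 3.72 and no longer passed (adjusted p = 0.0544).

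**Figure D2:**
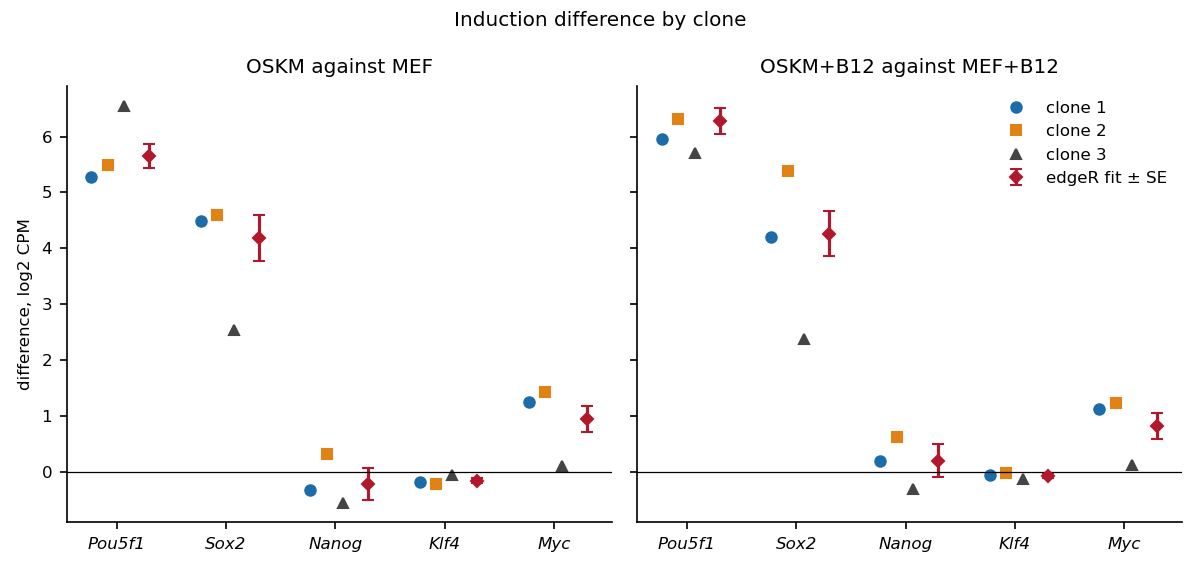
Difference in log2 CPM between induced and uninduced libraries of the same clone (points, vertical axis) for Pou5f1, Sox2, Nanog, Klf4 and Myc (horizontal axis), without B12 (left) and with B12 (right). Diamonds are the edgeR log2 fold change with bars of 1 SE. Clone 3 lies far below clones 1 and 2 for Sox2 and Myc, while the Nanog points lie between -0.55 and 0.62 and those of Klf4 between -0.23 and -0.02.

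The clones reached different levels of these factors. Taken as the ratio of scaled counts in induced to uninduced cells of the same clone, Sox2 was 23.6-fold higher in clone 1 and 25.5-fold higher in clone 2 without B12, but 6.17-fold higher in clone 3 (95% exact interval 4.02 to 9.87). With B12 the ratios were 19.03, 44.98 and 5.49. The Sox2 response differed between clones (edgeR F test, adjusted p = 0.0156), while 2.15% of all genes did so. Leaving out clone 3 removed this call (adjusted p = 0.871), since the difference between clones 1 and 2 was all that remained. For Pou5f1 the same test gave an adjusted p of 0.352. Its ratios were 41.4 and 68.2 in clone 1 and 48.7 and 91.7 in clone 2, without and with B12, and in clone 3, where the uninduced libraries had 0 counts and 1 count, it was at least 60.4-fold higher without B12 (against 3 counts in the library at 0, with an exact lower limit of 48.8) and 159-fold higher with B12 (95% interval 28.1 to 6311). The absolute Pou5f1 level of clone 3 was nevertheless low, with 2.86 CPM in OSKM and 2.33 CPM in OSKM+B12 against group maxima of 19.3 and 20.7 CPM.

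Pou5f1 and Sox2 were both lowest in clone 3 among the induced libraries. Their log2 CPM was 1.24 to 1.53 and 1.15 to 1.24 in clone 3, against 4.21 to 4.37 and 3.74 to 4.16 in clones 1 and 2. A correlation over the induced libraries spans this gap between clones. One over all 12 libraries also spans the gap between uninduced and induced cells, so genes that rose with induction can rank high by it. Within induced clone 2, Pou5f1 differed by 0.04 with B12 and Sox2 by 0.42. The ratio of their counts stayed between 1.06 and 1.39 in the 6 induced libraries. Pearson's r of their log2 CPM was 0.957 over the 12 libraries, 0.995 over the 6 induced and 0.710 over the 6 uninduced ones, as a description of libraries that share clones. Sox2 was the gene most like Pou5f1 by this measure among 11940 genes, followed by Gstt1 (0.933), Pcyt1b (0.917), Mlf1 (0.916) and Mrpl50 (0.916). The genes most like Sox2 were Mlf1 (0.972), Ripor2 (0.965), Homer2 (0.962), Grin3a (0.961) and Tek (0.959).

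The increments of the 4 cassette genes were set side by side. For Klf4 and Myc, too, the table does not separate cassette from endogenous reads, so each increment is the net of both. Per kilobase of coding sequence, the increment of induced over uninduced cells in clones 1 and 2 was 16.1 to 18.2 CPM for Pou5f1, 13.4 to 18.2 CPM for Sox2 and 18.3 to 22.7 CPM for Myc, a growth and cell cycle regulator. In clone 3 the increments were 2.07 to 2.55, 1.86 to 2.04 and 1.05 to 1.21 CPM. Clones 1 and 2 thus overlapped or adjoined for the 3 genes, and clone 3 was lower for each. Klf4, a Krüppel-like factor, had increments of -14.4 to -1.31 CPM per coding kilobase, with a lower level in the induced library of all 6 pairs. Its counts were 7042 to 9064 in uninduced and 7050 to 9254 in induced libraries. Uninduced cells already held a mean of 135 CPM of Klf4 in MEF and 120 CPM in MEF+B12. How much of the induced Klf4 level came from the cassette was not tested. In the average over B12, Myc rose by 0.88 ± 0.17 (adjusted p = 0.0206) and Klf4 fell by 0.12 ± 0.03 (adjusted p = 0.0452), a call lost with library totals as the scaling (adjusted p = 0.155) and with any clone left out. Myc lost its call without clone 1 (adjusted p = 0.262) and without clone 2 (adjusted p = 0.426).

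**Figure D3:**
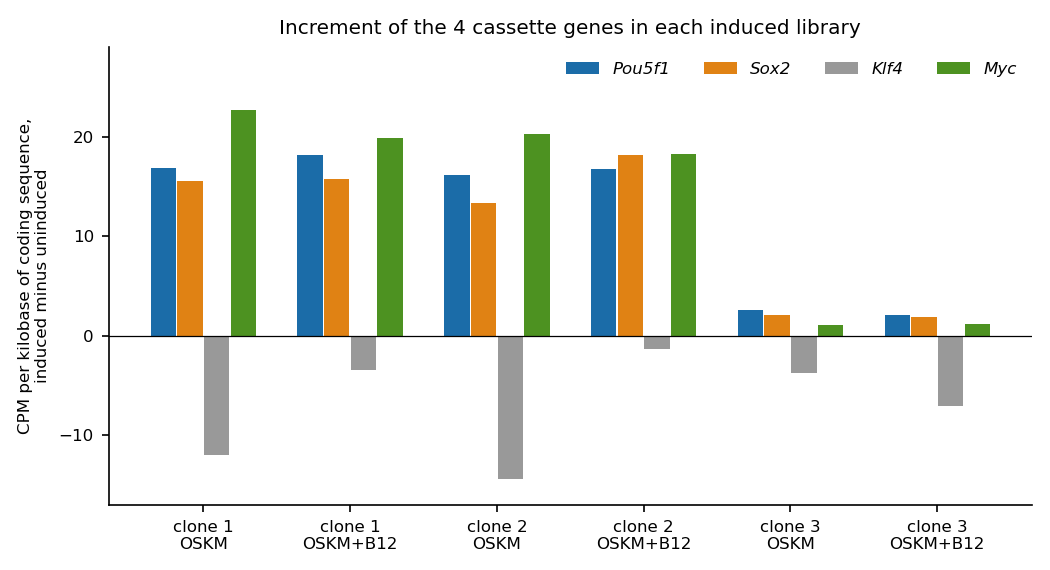
Increment in CPM per kilobase of coding sequence of the 4 cassette genes (vertical axis, induced minus uninduced library of the same clone and B12 condition) for the 6 induced libraries (horizontal axis). Bars of Pou5f1, Sox2 and Myc stand between 13.4 and 22.7 in clones 1 and 2 and between 1.05 and 2.55 in clone 3, and the Klf4 bars lie below 0.

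Nanog (ENSMUSG00000012396, chromosome 6, 122707489 to 122714633), the homeodomain factor whose promoter carries the composite element shown above, had 21, 19 and 26 counts in MEF and 21, 14 and 20 in MEF+B12. It had 19, 22 and 21 counts in OSKM and 24, 24 and 15 in OSKM+B12. The 4 groups overlapped throughout. The log2 difference with induction was -0.22 ± 0.29 without B12 (edgeR, adjusted p = 0.705), 0.19 ± 0.29 with B12 (adjusted p = 0.822) and -0.01 ± 0.21 in the average (adjusted p = 0.974). Summed over 6 libraries each, 125 induced counts against 121 uninduced counts gave a ratio of 0.984, with a 95% exact interval of 0.760 to 1.27. At this depth, a Nanog difference within that interval was not detectable. Part of the Nanog sequence is not its own, since 10.4% of its 31-base words occur in transcripts of other genes, among them the abundant Nedd4 (81831 to 140500 counts) and the pseudogene Nanog-ps1 (at most 1 count). What share of the Nanog counts came from such sequence was not tested.

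Esrrb, an orphan nuclear receptor of the naive network, had in MEF 0, 0 and 1 counts, with B12 3, 3 and 0, in OSKM 2, 0 and 1 counts, and with B12 0, 0 and 3. Its summed counts were 6 induced and 7 uninduced, a ratio of 0.817 with an interval of 0.227 to 2.84. Zfp42, which encodes the zinc finger protein Rex1 and holds the octamer printed above, had 1 count in each of 3 libraries, 2 of them uninduced. Of its words, 13.4% occur in other genes, and its pseudogene Zfp42-ps1 had 1 count in each of the same 2 uninduced libraries, MEF clone 2 and MEF+B12 clone 1. Sall4, a zinc finger factor that partners Oct4, had 1 count in all, in OSKM+B12 clone 2. These 3 genes did not pass the low-count filter, and in the edgeR fit without a filter their average induction differences had unadjusted p-values of 0.9495 (Esrrb), 0.496 (Zfp42) and 1 (Sall4). A summed level of 3 counts over the 6 induced libraries would be 0.00753 CPM.

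Tdgf1 (ENSMUSG00000032494, chromosome 9, 110939603 to 110946158), which encodes the Nodal co-receptor Cripto, was the one low member whose counts differed by state. Uninduced clones had 1, 0 and 0 without B12 and 0, 0 and 2 with B12, whereas induced clones had 4, 3 and 1 without and 4, 3 and 4 with B12. Counts were present in 6 of 6 induced and 2 of 6 uninduced libraries, and the sums of 19 and 3 gave a ratio of 6.03 with a 95% interval of 1.78 to 31.8. Tdgf1 did not pass the low-count filter. In the fit without a filter (33090 genes), its average log2 difference was 2.39 with an unadjusted p of 0.0319 and an adjusted p of 0.222, so the difference did not hold up after adjustment. Its pseudogene Tdgf1-ps1, which shares sequence with it, had 6 counts in induced and 0 in uninduced libraries, and 12.5% of the words of Tdgf1 occur in other genes. The part of the pseudogene in the Tdgf1 counts was not tested.

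Lin28a, an RNA-binding protein that blocks let-7 maturation, Utf1, a chromatin-associated coactivator, and Dppa4, a chromatin protein of early embryos, were not detected. With 0 counts over 392541617 counted pairs in the 6 induced libraries, 3 counts would allow a summed level of up to 0.00753 CPM. For Dppa4, 40.1% of its words occur in other genes, and those that share the most are processed pseudogenes, which also had 0 counts. Lin28a and Utf1 share none of their words with other genes.

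Levels between members were compared per kilobase of exon (RPKM). In OSKM, Pou5f1 was at 6.03 ± 4.13 and Sox2 at 5.05 ± 3.43 RPKM (mean ± SD, n = 3), and their ranges, 1.27 to 8.60 and 1.13 to 7.54, overlapped almost fully. Nanog was at 0.138 ± 0.027 RPKM and lay below both in every library, and Tdgf1 followed at 0.0158 ± 0.0095 RPKM. The order in OSKM+B12 was the same, with 6.22 ± 4.51 RPKM for Pou5f1, 5.82 ± 4.15 for Sox2, 0.144 ± 0.037 for Nanog and 0.0214 ± 0.0027 for Tdgf1. In MEF the order of the means was Sox2 (0.252 ± 0.068 RPKM), Nanog (0.160 ± 0.025) and Pou5f1 (0.126 ± 0.111), where the range of Pou5f1, 0 to 0.208, overlapped those of both other genes. Pou5f1 was above Nanog in clone 1 (0.208 against 0.162 RPKM) and clone 2 (0.169 against 0.134), and it was at 0 in clone 3. Coding sequence makes up 49.9% of the exon length of Pou5f1 and 46.5% of that of Sox2, so a transcript that carries only coding sequence would be understated by these values.

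The counts of Pou5f1 in uninduced cells were small and followed the clone. Clones 1 and 2 had 12 to 27 counts and clone 3 had 0 and 1, in libraries of similar depth. An antisense gene on the opposite strand, Gm19553, overlaps 317 exon bases of Pou5f1 and had 0 to 13 counts, 58 in induced and 31 in uninduced libraries, and the counting used strand. Sox2 shares words with the related genes Sox1, Sox21 and Sox3 (0.888% of its words). Of these, Sox1 had 57 counts in induced and 18 in uninduced libraries. The source of these counts was not tested.

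The effect of B12 on the members was examined within each state. In induced cells the log2 difference of OSKM+B12 against OSKM was -0.03 ± 0.13 for Pou5f1 (edgeR, adjusted p = 0.970), 0.17 ± 0.29 for Sox2 (adjusted p = 0.895) and 0.06 ± 0.29 for Nanog (adjusted p = 0.965). None of the 3 members tested was called (0 with an unadjusted p under 0.05 and 0 called by DESeq2), against 1.06% of all genes. By clone, the Pou5f1 differences were 0.10, 0.04 and -0.29 and those of Sox2 were 0.04, 0.42 and -0.10, so neither gene moved one way in all clones. In uninduced cells the differences of MEF+B12 against MEF were -0.66 ± 0.37 for Pou5f1 (adjusted p = 0.616), 0.09 ± 0.55 for Sox2 (adjusted p = 0.984) and -0.35 ± 0.29 for Nanog (adjusted p = 0.783). By clone, the Nanog differences were -0.24, -0.28 and -0.44, lower with B12 in all 3 pairs, while in induced cells they were 0.30, 0.02 and -0.20. Those of Pou5f1 and Sox2 in uninduced cells were of mixed sign. Again no member was called (0 with an unadjusted p under 0.05, 0 by DESeq2), against 1.38% of all genes. The standard errors left room for sizeable differences in uninduced cells, where each gene rested on fewer than 60 counts a library.

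Averaged over both states, B12 gave -0.34 for Pou5f1 (adjusted p = 0.450), 0.13 for Sox2 (adjusted p = 0.885) and -0.14 for Nanog (adjusted p = 0.787) in the same edgeR fit, with 3.84% of all genes called. The interaction, which is the B12 difference in induced minus that in uninduced cells, was 0.63 ± 0.39 for Pou5f1, 0.08 ± 0.63 for Sox2 and 0.41 ± 0.41 for Nanog. All 3 had an adjusted p of 1, and 0% of all genes were called, while 1.42% had an unadjusted p under 0.05 and DESeq2 called 3 genes. None of the genes in the other pluripotency lists below was called in a B12 comparison either, by edgeR or DESeq2, and at most 1 gene of a list had an unadjusted p under 0.05. Over all genes, that share was 9.82% in induced cells, 10.3% in uninduced cells and 15.5% over both states. The macrophage markers, in contrast, were higher with B12 in both states, 7 of 8 in induced cells (1.05% of all genes were called higher) and 8 of 8 in uninduced cells (1.37%). None of the 8 was at 0 in any library, and their summed level was 508 to 967 CPM in MEF, 885 to 1456 in MEF+B12, 525 to 901 in OSKM and 899 to 1182 in OSKM+B12. The called markers were higher by 0.53 (C1qb) to 0.91 (Fcgr1) on the log2 scale in induced and by 0.51 (C1qb) to 0.99 (Fcgr1) in uninduced cells. All 15 of these marker calls were lost without clone 2 (adjusted p from 0.152 to 0.618), where the differences were 0.46 to 0.82 in induced and 0.46 to 0.91 in uninduced cells. Their part in the member values was not tested.

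Other genes of the pluripotency network were read from 3 lists. Of 16 regulators of the naive network, 11 passed the low-count filter and none was called by edgeR in either single induction comparison. In each, 3 had an unadjusted p under 0.05 (19% of all genes without B12 and 14.9% with it). DESeq2 called 1 in each, and its counts over all genes are given further below. In the average over B12, 0 were higher and 2 lower (4.46% and 5.26% of all genes), with a median log2 difference of -0.01 over the 11 tested against 0.00 over all genes. Klf2, a Krüppel-like factor also known from endothelium, fell by 0.47 ± 0.08 (adjusted p = 0.0172), and its relative Klf5 fell by 0.30 ± 0.08 (adjusted p = 0.0489), a call lost with library totals as the scaling (adjusted p = 0.0654) and with at least 10 counts in every library (adjusted p = 0.0516). Tbx3, the third most abundant of them, had a difference of -0.11 ± 0.05 (adjusted p = 0.235).

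Of 20 pluripotency-associated effectors, 12 passed the filter. In each single comparison 1 was called, L1td1, and in the average 3 were higher and 2 lower, with a median of 0.19 over the 12 tested. Over all genes, 0.073% and 0.104% were called in the single comparisons, and 4.46% were higher and 5.26% lower in the average. The 3 higher genes, L1td1, Tdh and Fbxo15, were low in uninduced cells and passed the low-count filter through their induced libraries. A low gene could thus be tested because it rose, so the number higher and the median describe the tested genes and not the list. L1td1, an RNA-binding protein derived from a LINE-1 element and abundant in embryonic stem cells, had 2, 0 and 0 counts in MEF and 0 in each MEF+B12 library. It had 144, 187 and 13 counts in OSKM and 149, 230 and 7 in OSKM+B12. All 6 induced libraries were above all 6 uninduced ones, and clone 3 was again the lowest. The sums of 730 and 2 gave a ratio of 348 (95% exact interval 95.9 to 2877), and the adjusted p in edgeR was 0.00102 without B12, 0.000598 with B12 and 3.91e-05 in the average. In the single comparisons the call was lost without clone 1 (adjusted p = 0.0928 without B12 and 0.0849 with it) and without clone 2 (0.184 and 0.103). Whether the response of L1td1 differed between clones was not shown (adjusted p = 0.496).

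The other effectors that were called in the average had smaller differences. Tdh, the threonine dehydrogenase of mouse embryonic stem cells, rose by 2.61 ± 0.50 (adjusted p = 0.0206), from 1 to 8 counts in uninduced to 8 to 35 in induced libraries, which met at 8. In clones 1, 2 and 3 its log2 CPM differences were 2.89, 2.94 and 0.02 without B12 and 1.31, 2.85 and 1.89 with B12. Fbxo15, an F-box gene widely used as a reporter of reprogramming, rose by 1.30 ± 0.33 (adjusted p = 0.0359), with 2 to 9 counts uninduced and 11 to 19 induced, a call that DESeq2 did not make (adjusted p = 0.0507). Dppa3, a maternal factor that protects DNA methylation in the early embryo, fell by 0.81 ± 0.18 (adjusted p = 0.0258), with 20 to 62 counts uninduced and 18 to 28 induced. Fut4, a fucosyltransferase gene, fell by 0.38 ± 0.07 (adjusted p = 0.0206). Lefty1, a Nodal antagonist and the most abundant of the list per kilobase, had a difference of 0.01 ± 0.07 (adjusted p = 0.933), and the DNA methyltransferase gene Dnmt3b one of 0.21 ± 0.07 (adjusted p = 0.0936).

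Of 6 genes of primed pluripotency, the later state of the epiblast, 4 were tested and none was called in any comparison (0 with an unadjusted p under 0.05 and 0 by DESeq2 in the averaged induction). Over all genes, 9.73% were called in that average and 26.8% had an unadjusted p under 0.05, so 0 of 4 says little about the list. In the average over B12 the differences were -0.08 ± 0.05 for Dnmt3a, 0.20 ± 0.11 for Zic2 and -0.04 ± 0.16 for Fgf5, with adjusted p-values of 0.325, 0.279 and 0.902. Of the genes outside the members that were called in the average, 19 over all lists, 18 lost their call without clone 1 and 17 of 18 still tested did so without clone 2. L1td1 kept its call in both refits. These refits hold fewer libraries than the full fit.

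**Figure D4:**
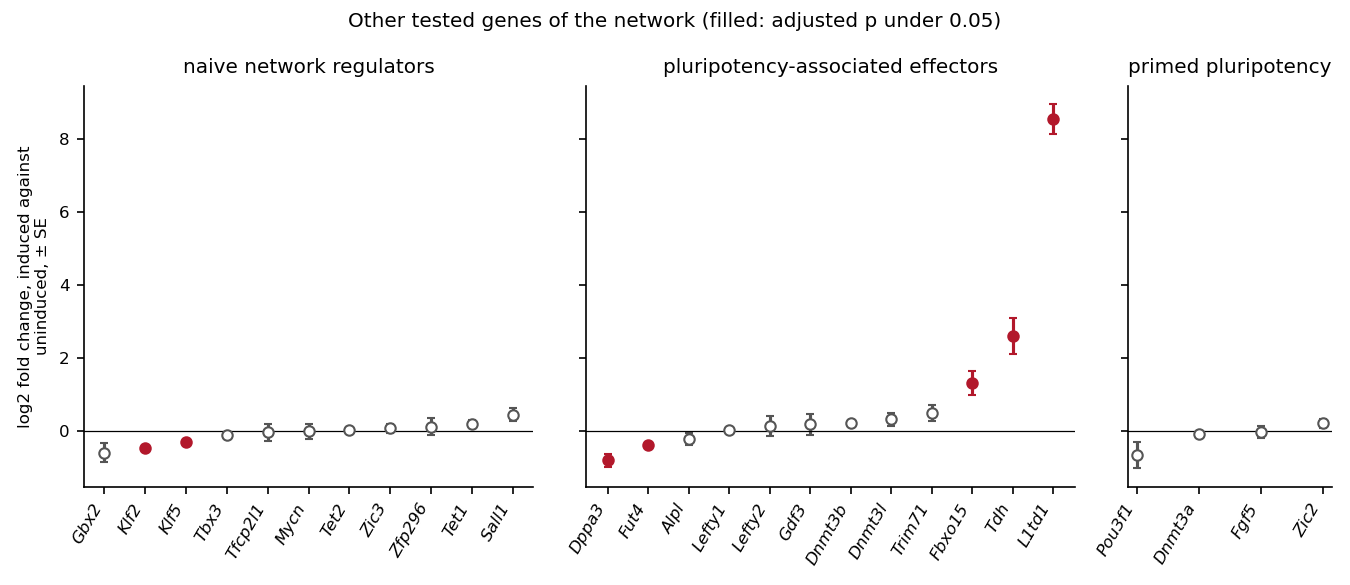
Log2 fold change of induced against uninduced cells, averaged over B12 (vertical axis, bars of 1 SE), for the tested genes of the 3 other network lists (horizontal axis). Filled red points have an adjusted p under 0.05, and L1td1 stands at 8.55 (a value that depends on the prior count, as the uninduced libraries sum to 2 counts), above Tdh at 2.61 and Fbxo15 at 1.30, while the naive regulators lie between -0.60 and 0.44.

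One library stood apart in its pseudogene counts. Over 1519 pseudogenes, the log2 difference of the OSKM library of clone 1 from the other libraries of its clone had an SD of 0.556, against 0.114 to 0.247 in the other libraries. Without it, the Pou5f1 difference of OSKM against MEF was 5.75 (edgeR, adjusted p = 3.95e-06) and that of Sox2 was 4.10 (adjusted p = 0.0190), so both calls remained. Of the 19 listed genes outside the members, 11 lost their call in the average without it, among them Klf5, Dppa3 and Fbxo15.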

How the data were processed

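RNA-seq was analysed from 12 libraries of 3 embryos. The authors made strand-specific poly(A) libraries, aligned them with STAR (2.5.2 in the submitters' processing notes) to GRCm38, and used featureCounts with the reverse-strand setting. The deposited table holds raw counts of read pairs, with the flow cells of a library summed. Multi-mapping settings beyond these are not given in the sources used here.

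CPM and RPKM were computed here with TMM factors, and log2 CPM used a prior count of 2. GENCODE M21 gave names, coordinates and lengths for 55480 of 55573 identifiers, and promoter windows came from RefSeq. Genes kept by filterByExpr were tested with edgeR 4.0.16 (R 4.3.3, quasi-likelihood F test), with 1 fit of group and clone over all 12 libraries, Benjamini-Hochberg adjustment over 19174 genes and a threshold of 0.05. The block for clone follows from the embryos, each the source of 1 library per group, and libraries of one clone deviated together from the group means (correlations of 0.270 to 0.687 over 18 pairs, at most 0.170 between clones). Differences between clones in the induction response were tested with a clone by state term. No pair of libraries was identical. Summed counts have exact conditional binomial intervals of 95%. Alternatives were DESeq2 1.42.0, its size factors, library totals, no filter, at least 10 counts in every library, only the libraries compared, no replicate block, each clone left out, and OSKM clone 1 left out.

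The members, the other gene lists and the alternatives were chosen with earlier results of these data known. The genes named are the members, Klf4 and Myc, the genes of each other list past the threshold (at most 6) or among its 3 most abundant per kilobase, and the 5 genes most correlated with Pou5f1 and with Sox2. Genes that share sequence or position with a member are named beside it. Lin28a and the other genes at 0 were not fitted. The submitters' labels give 6 flow cells per library. Clone 1 carries a later year in its titles than clones 2 and 3, so the values without clone 1 are those within a single year.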

Additional observations from a re-analysis of the deposited data

Results flagged for a closer look

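The response to induction differed between clones, by the F test of edgeR on the clone by state term, for 6 genes of the lists. Over all genes tested, 2.15% were called. Of the tested genes, those called were 1 of 3 members, 1 of 2 other cassette factors and 1 of 11 naive regulators. They were also 1 of 4 epithelial, 1 of 8 macrophage and 1 of 4 germ cell markers. None of 12 effectors, 12 fibroblast, 7 neural crest and progenitor and 4 primed genes was called. The causes were not tested. All 6 lost the call without clone 3, where 2 clones remain (adjusted p from 0.871 to 0.883). Krt8 also lost it without clone 2 (0.0924), Klf2 without clone 1 (0.0702), and Prdm1 without clone 1 (0.0530) and without clone 2 (0.0878). Sox2 (adjusted p = 0.0156) had log2 differences of 4.50, 4.59 and 2.53 in clones 1, 2 and 3 without B12 and 4.20, 5.39 and 2.37 with B12. Myc (adjusted p = 0.000653) had 1.25, 1.42 and 0.11 without B12. Krt8, an epithelial keratin (adjusted p = 0.0337), had 2.82, 3.45 and -0.13. Klf2 (adjusted p = 0.0142) had -0.86, -0.43 and -0.19. The germ cell and lineage regulator Prdm1 (adjusted p = 0.0374) had -1.20, -0.95 and 0.08, and the macrophage receptor Adgre1 (adjusted p = 0.0295) had -0.45, -0.36 and 0.02.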

How the results depend on the processing

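With 3 embryos, precision was limited by the number of clones and, for 7 of the 10 members, by counts near 0. Of the 2 members called with induction, 1 remained with at least 10 counts in every library, a minimum that Pou5f1 in uninduced clone 3 does not reach, 1 with only the libraries compared (with B12), 0 with no replicate block in each induction comparison, and 1 to 2 with each clone left out. In the clone response test 0 to 1 members were called with each clone left out. With no replicate block, the adjusted p-values of Pou5f1 and Sox2 were 0.705 without B12, 0.966 with B12 and 0.153 in the average, and removing the block changed no member call in the B12 comparisons. Members detected at 10 or more counts were 3 in place of 5 in OSKM clones 1 and 3, OSKM+B12 clone 2 and MEF+B12 clone 1, 3 in place of 6 in OSKM+B12 clone 3, and 2 in place of 4 in MEF+B12 clone 3. Directions turned only for differences that were not called. Nanog in the average was 0.032 with library totals, and Pou5f1 in OSKM+B12 against OSKM was 0.048 with no replicate block. With each clone or OSKM clone 1 left out, Nanog ranged from -0.26 to 0.21 in the average, from -0.038 to 0.43 for induction with B12 and from -0.068 to 0.18 for B12 in induced cells. Sox2 ranged from -0.0096 to 0.27 for B12 in induced cells, from -0.086 to 0.23 for B12 in MEF and from -0.24 to 0.33 for the interaction, and Pou5f1 from -0.12 to 0.079 for B12 in induced cells. Whole-table counts moved more than the members. Induction without B12 called 14 genes, against 491 with DESeq2, 681 with no filter, 2 with the 10-count minimum, 4 with only the libraries compared, 0 with no block and 5 without OSKM clone 1. With B12 it called 20, against 410, 646, 1, 6 and 0 in the same order. Without clone 3 the counts were 1322 and 1004. The average called 1865, against 0 with no block, 3056 without clone 3, 10 without clone 1, 3 without clone 2 and 771 without OSKM clone 1. Without clone 1 and without clone 2, induction called 1 and 1 genes without B12 and 2 and 1 with B12. B12 in induced cells called 204, against 382 with DESeq2, 364 with no filter, 108 with only the libraries compared, 0 with no block, 0 without clone 2 and 13 without clone 3. B12 in MEF called 264, against 459, 425, 845, 0, 0 and 29 in that order and 409 with library totals. B12 over both states called 736, against 90 with no block, 34 without clone 2 and 317 without clone 3. The clone response called 413, against 1257 with no filter, 724, 195 and 0 without clones 1, 2 and 3, and 838 without OSKM clone 1. The causes were not tested.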

Other observations

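Lists of other cell types were read in the same induction average (edgeR, log2 scale), where the median over all genes was 0.00 and 4.46% of all genes were called higher and 5.26% lower. Of 10 epithelial markers, 4 were tested and 2 rose, with a median of 1.48 over the 4 tested. The keratin gene Krt8 rose by 2.58 ± 0.42 (adjusted p = 0.0160). It had 18, 17 and 18 counts in MEF and 161, 187 and 20 in OSKM for clones 1, 2 and 3, so the rise was in clones 1 and 2. Cdh1, which encodes E-cadherin, rose by 1.95 ± 0.33 (adjusted p = 0.0172), with 2 to 13 counts in uninduced and 6 to 40 in induced libraries. Krt18, the partner keratin, had a difference of 0.14 ± 0.22 (adjusted p = 0.740). Krt8 and Cdh1 both lost the call without clone 1 and without clone 2. Cdh1 passed the low-count filter only with the help of its induced libraries, so the median describes the tested genes and not the list. The untested markers went both ways, with ratios of summed induced to uninduced counts (scaled) from 0.644 to 19.1 where both sums were above 0.

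Of 12 fibroblast markers, all tested, 4 fell and 0 rose. The collagen genes Col1a1 and Col1a2 fell by 0.35 ± 0.08 (adjusted p = 0.0277) and 0.28 ± 0.07 (adjusted p = 0.0360), and the growth factor receptor genes Pdgfra and Pdgfrb fell by 0.26 each (adjusted p = 0.0276 and 0.0214). Col3a1 had a difference of -0.19 ± 0.06 (adjusted p = 0.0849). Of 10 neural crest and progenitor markers, 7 were tested and 1, the fatty acid binding protein gene Fabp7, rose by 0.69 ± 0.16 (adjusted p = 0.0278). Ngfr, a neurotrophin receptor gene, had a difference of -0.21 ± 0.12 (adjusted p = 0.280). Of 10 primordial germ cell markers, 4 were tested and 1, Prdm1, fell by 0.73 ± 0.20 (adjusted p = 0.0468), while Ddx4 had a difference of 0.01 ± 0.11 (adjusted p = 0.953). Of 8 macrophage markers, Adgre1 and Csf1r fell by 0.27 and 0.31 with induction (adjusted p = 0.0465 and 0.0409), calls that were lost with library totals as the scaling. With B12 averaged over both states, 1 of the 12 fibroblast markers was called, Prrx1, which fell by 0.15 (edgeR, adjusted p = 0.0336). Over all genes, 0.381% were called lower in that comparison. The Prrx1 call was lost with any clone left out (adjusted p from 0.176 to 0.328).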
